A study of Mus musculus with 4 samples.

Results

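The clade A serpins are serine protease inhibitors and their non-inhibitory relatives, and the liver secretes many of them into plasma. The genes described here are 10 members of the family, Serpina1a, Serpina1b, Serpina1c, Serpina1d, Serpina1e, Serpina3k, Serpina3m, Serpina3n, Serpina6 and Serpina7. They were taken by gene name from the array files, where 12 of the 56605 non-control probes and 10 of the 37074 gene names belonged to them. Aristolochic acid I (AAI), a plant nephrotoxin, was given by intraperitoneal injection on 5 days a week for 3 weeks to wild-type C57BL/6 mice that were 6 weeks old according to the labels. Females received 5 mg/kg/day and males 2 mg/kg/day, with corn oil, the vehicle, given to the control mice of either sex. No group carried a genetic alteration. Liver RNA from 5 mice of a group was mixed in equal amounts and hybridized to 1 single-channel Agilent array, so the study has 4 arrays. There was therefore no replicate error and no test within a sex, and no fit that pools the sexes was made. The effects of sex and of dose cannot be told apart. In bulk RNA of this kind, fewer cells of a type and less RNA per cell cannot be told apart either.

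An inhibitory serpin presents a reactive loop to its target protease, which cuts it and is then trapped in an inactive complex. Serpina1, alpha-1 antitrypsin, is the main plasma inhibitor of neutrophil elastase, and mice carry several closely related copies of its gene. The Serpina3 genes are the expanded mouse relatives of alpha-1 antichymotrypsin. Serpina3k is also known as a kallikrein-binding protein, and Serpina3n is an acute phase gene whose product inhibits cathepsin G and granzyme B. Serpina6 and Serpina7 inhibit no protease. They carry hormones in plasma, as corticosteroid-binding globulin and thyroxine-binding globulin respectively.

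The 5 Serpina1 genes are near-identical copies, and the probe sequences show how far the array could separate them. A run of 29 bases was the same in a probe named Serpina1a, the Serpina1c probe and a probe named Serpina1e, and it makes up much of each 60-base probe:

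shared by Serpina1a, Serpina1c and Serpina1e: gtcatccttccttctgaattgggttcctt

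The Serpina1a and Serpina1c probes of this set had 47 consecutive bases in common. The accessions given for the Serpina1c probe named 3 genes (Serpina1a, Serpina1b and Serpina1c), and those for the Serpina1d probe named 2 (Serpina1b and Serpina1d). The Serpina1b probe had 26 consecutive bases in common with the other Serpina1a probe. The Serpina1b probe and the other Serpina1e probe were better separated from each other. They overlapped over 44 bases with 5 mismatches, shown in capitals:

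Serpina1b: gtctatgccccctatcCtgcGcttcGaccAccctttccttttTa
Serpina1e: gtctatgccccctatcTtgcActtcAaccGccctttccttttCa

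Signals of single Serpina1 genes are therefore uncertain, and the 7 probes are described as a set. The probes of Serpina3k, Serpina3m, Serpina3n, Serpina6 and Serpina7 had no such run in common with any other of the 12 probes. Their sequences are shown because the differences between groups lay in these genes, with the exception of Serpina3m. The Serpina7 and Serpina3k probes are given whole, and the other probes by their first 30 bases:

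Serpina7: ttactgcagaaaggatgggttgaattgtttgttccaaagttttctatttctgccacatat
Serpina3k: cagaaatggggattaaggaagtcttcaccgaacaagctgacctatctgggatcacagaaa
Serpina3n: ttggcatgcctggattagatagtgactaac
Serpina6: atcttgtaatgaataggccttgttgctact
Serpina3m: atctgtgcatgtttctgaacctggagtctg

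On mouse genome build mm9, as given in the array files, the Serpina7 probe lies on the minus strand of chromosome X between 135615848 and 135616502, an interval of 655 bases for a probe of 60. The Serpina3k probe lies on chromosome 12 between 105582408 and 105582466, the Serpina3m probe between 105632342 and 105632400 and the Serpina3n probe between 105651918 and 105651977, all on the plus strand. The Serpina6 probe lies on the minus strand of chromosome 12, between 104884880 and 104884939. No mm9 annotation was used here, so the exon or untranslated region of a probe is not given.

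The RefSeq promoter sequences (build GRCm38.p6, 250 bases before to 50 after a gene start) hold 7 of the 10 genes, in 8 windows. A search on both strands covered 3 letter patterns: GTTAAT, a half-site of the liver transcription factor HNF1, TTCNNNGAA, a pattern bound by STAT factors, and TTGCNNAA, a pattern bound by C/EBP factors. GTTAAT was in 7.1% of all 32851 promoters of this length. It was in all 5 Serpina1 promoters and in both Serpina7 windows, and not in that of Serpina3n. Both Serpina7 windows overlap and hold the same single site, and the Serpina1 stretches are near-identical copies. The matches are therefore not separate ones to set against the share of all promoters. The stretches around GTTAAT are shown for members of both kinds, those whose signal scarcely moved and the one that was at least 2-fold higher with AAI in both sexes, with GTTAAT in capitals:

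Serpina1a, minus strand of chr12:103863620-103863664: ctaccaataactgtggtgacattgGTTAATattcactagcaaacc
Serpina1e, minus strand of chr12:103956940-103956999: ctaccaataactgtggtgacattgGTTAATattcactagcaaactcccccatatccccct
Serpina7, minus strand of chrX:139085258-139085317: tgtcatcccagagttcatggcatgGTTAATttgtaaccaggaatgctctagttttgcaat

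The Serpina1a and Serpina1e stretches were identical at 44 of 45 positions. TTCNNNGAA was in 8.3% of all promoters and in none of these windows. TTGCNNAA was in 10.8% of all promoters and in those of Serpina1a, Serpina1b, Serpina1d, Serpina1e and Serpina7. A match of letters is a description of the window and no evidence of binding.

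Signals are given as log2 of the processed fluorescence after quantile normalization of the 4 arrays, and a log2 ratio of 1 or more in size (2-fold) was counted, the fold part of a threshold in the methods of the study that also set a limit on p. Between 74.7% and 81.5% of probes were well above background on an array. All 12 Serpina probes were above background on all 4 arrays, and none was saturated or marked as an outlier. Each of these probes had 1 spot per array. As measures of technical error only, probes spotted repeatedly had a median SD between spots of 0.0451 to 0.0845 log2 units, and where a gene had several probes their ratios had a median SD of 0.25 (females), 0.24 (males) or 0.23 (between the sexes). The summed signal of 9 hepatocyte markers was 20.96 to 21.09 on the 4 arrays, all of them above background on each. This sum rests mostly on the brightest markers, such as Alb (19.12 to 19.15). Quantile normalization holds the top ranks nearly equal, so the sum does not show that hepatocyte content was constant. None of the 9 passed 2-fold with AAI in either sex, and 1, Hpd, did between the corn oil arrays (-1.28, males over females). Markers of other tissues differed. The summed signal of 8 skeletal muscle markers was 9.17 with corn oil and 15.53 with AAI in females, and 12.37 with corn oil and 18.59 with AAI in males. That of 7 adipocyte markers was 10.6, 11.15, 12.22 and 15.7, and that of 7 adrenal markers 11.58, 11.57, 12.27 and 15.28, in the same order of groups. That of 4 erythroid markers was 18.08, 17.63, 17.73 and 15.77, with 3 of the 4 at least 2-fold lower with AAI in males, and that of 7 immune and Kupffer cell markers was 16.32, 15.14, 15.99 and 15.57, with 3 of the 7 lower in females. Defining markers of muscle, fat and adrenal tissue were not at 0, as 7 or 8 of the muscle, 5 to 7 of the adipocyte and 6 or 7 of the adrenal markers were above background on each array.

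**Figure D1:**
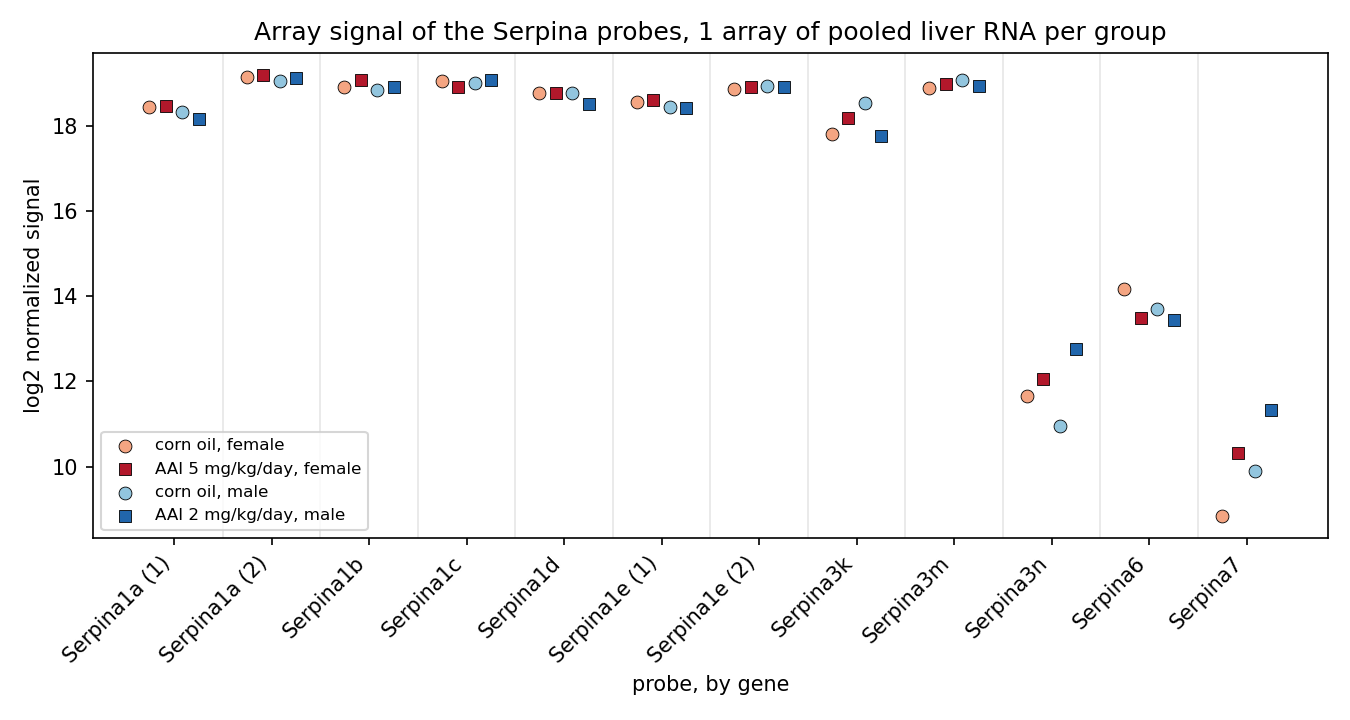
Log2 normalized signal (y axis) of the 12 Serpina probes (x axis) in the 4 groups, with 1 point per array and no error bars because each group has 1 array. For Serpina1a and Serpina1e the brighter probe is (2). The points of the Serpina1 probes and Serpina3m lie close together, whereas those of Serpina7 spread over 2.48 log2 units and those of Serpina3n over 1.81.

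Most of the family differed little between AAI-treated and corn oil-treated livers, and the hormone carrier Serpina7 and the acute phase gene Serpina3n stood apart. In females 1 of the 10 genes was at least 2-fold higher with AAI (Serpina7) and none was lower, beside 4.41% of all 31636 genes tested in either direction (1.34% higher, 3.07% lower). In males 2 were higher (Serpina3n and Serpina7) and none was lower, beside 8.02% of 30489 genes (3.47% higher, 4.55% lower). The median log2 ratio of the 10 genes was 0.07 in females and 0.01 in males, against 0.04 and 0.00 for all genes tested.

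Serpina7, thyroxine-binding globulin, had a log2 signal of 8.84 with corn oil and 10.32 with AAI in females, and of 9.91 and 11.32 in males. Before normalization the processed signals were 431, 1283, 1037 and 2480. The AAI array was the higher one in each sex. The log2 ratio was 1.48 in females (2.78-fold) and 1.41 in males (2.66-fold), and the ratios of the sexes differed by -0.07 (males minus females), less than the SD between probes. Serpina7 stood at rank 99 from the highest of 29675 genes above background on both arrays in females, and at rank 431 of 28393 in males. The ratio was between 1.40 and 1.59 in females and between 1.26 and 1.63 in males under the 7 other settings of the processing. The order of the 4 arrays by Serpina7 signal, AAI-treated males, AAI-treated females, corn oil-treated males and corn oil-treated females, was also their order by summed skeletal muscle markers. The part of these markers in the Serpina7 differences was not tested.

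Serpina3n had a log2 signal of 11.67 with corn oil and 12.07 with AAI in females, and of 10.95 and 12.76 in males. The processed signals were 3200, 4336, 2086 and 6670. Males therefore had both the lowest signal, with corn oil, and the highest, with AAI. The log2 ratio was 1.81 in males (3.51-fold, rank 298 from the highest of 28393 genes) and 0.40 in females (1.32-fold). The ratios differed by 1.41 between the sexes, a difference that could not be tested with 1 array per group. The 7 other settings gave 1.64 to 1.85 in males and 0.31 to 0.44 in females. In males the AAI array also had higher muscle, adipocyte and adrenal marker signals, and 3 of 5 neutrophil markers were at least 2-fold higher. Between the corn oil arrays, Serpina3n was lower in males, where the muscle, adipocyte and adrenal sums were higher and the sum of 6 neutrophil markers was lower (12.95 against 15.06). The part of any of these markers in the Serpina3n differences was not tested.

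**Figure D2:**
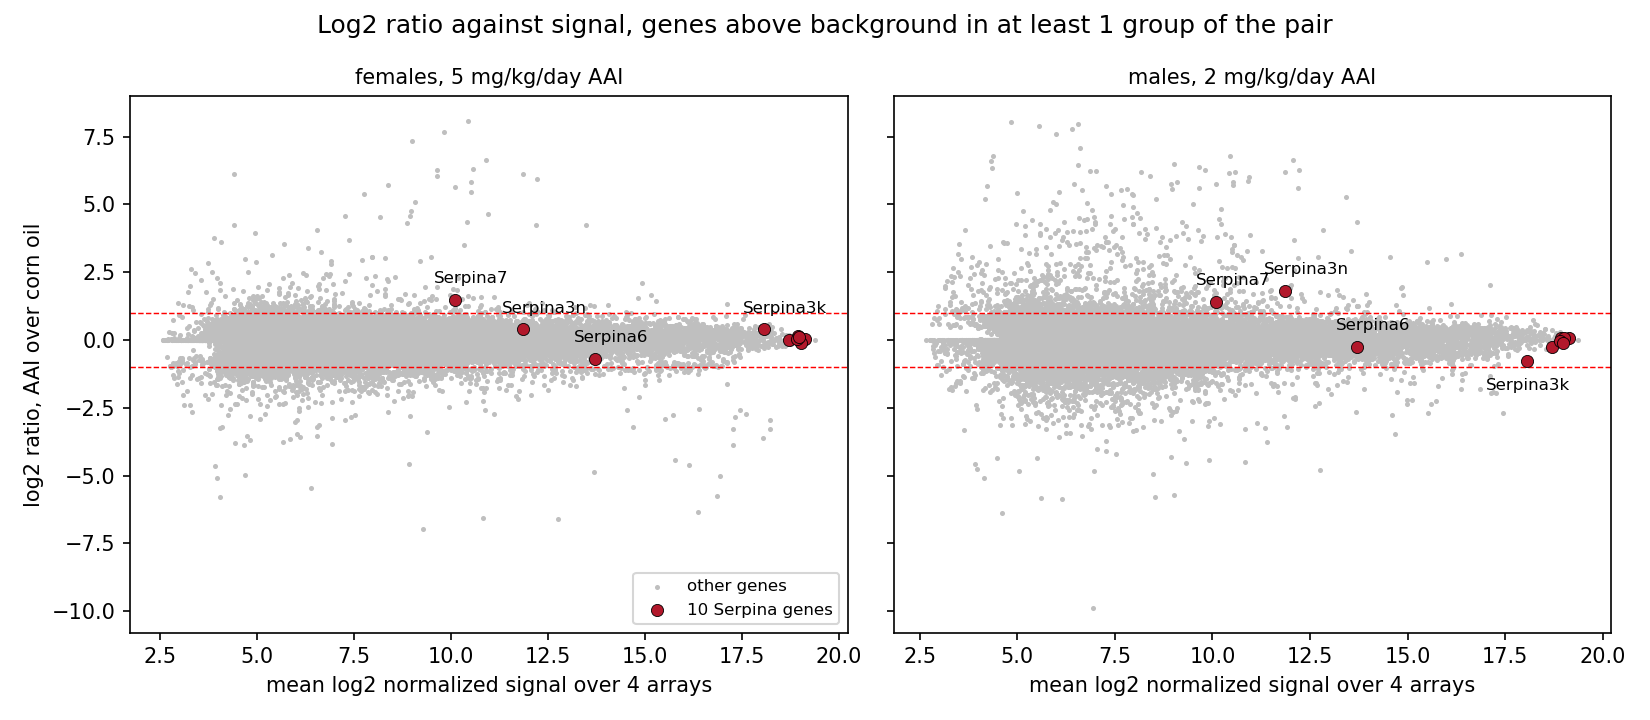
Log2 ratio of AAI over corn oil (y axis) against the mean log2 normalized signal over the 4 arrays (x axis) for genes above background in at least 1 group of the pair, in females (left) and males (right). Red points are the 10 Serpina genes, grey points all other genes, and dashed lines mark a 2-fold difference. Serpina7 lies above the upper line in both sexes and Serpina3n in males, and the dense row of grey points at 0 on the far left holds ratios set to 0 because their bound was under 1-fold.

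Serpina6, corticosteroid-binding globulin, was the gene with the lowest ratio of the 10 in females. Its log2 signal was 14.18 with corn oil and 13.48 with AAI in females, and 13.70 and 13.45 in males. The corn oil-treated female array stood highest, and both AAI arrays lay close together at the low end. The log2 ratio was -0.69 in females (1.62-fold lower, rank 2011 from the lowest of 29675 genes) and -0.25 in males (1.19-fold lower), the latter close to the SD between probes. Neither reached 2-fold, and the other settings gave -0.78 to -0.67 in females and -0.32 to -0.15 in males.

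Serpina3k, the kallikrein-binding relative, had a log2 signal of 17.80 with corn oil and 18.19 with AAI in females, and of 18.53 and 17.76 in males. The processed signals were 226000, 299397, 394639.7 and 222000. The corn oil-treated male array was the highest, and the AAI-treated male and corn oil-treated female arrays differed by less than the SD between probes. The log2 ratio was 0.40 in females and -0.77 in males (1.71-fold lower), with opposite signs in the sexes and a difference of -1.17 that could not be tested. The signs were the same under the 7 other settings, with 0.30 to 0.41 in females and -0.83 to -0.66 in males. Serpina3k did not reach 2-fold in either sex.

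Serpina3m had signals of 18.89 with corn oil and 18.99 with AAI in females, and of 19.07 and 18.94 in males. Its log2 ratios, 0.10 in females and -0.13 in males, were smaller than the SD between probes. Without normalization between arrays they were 0.01 and -0.40.

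The alpha-1 antitrypsin genes were among the brightest on the arrays, with the 7 Serpina1 probes at ranks 2 to 70 of 56393 probes. The brightest Serpina1a probe gave 19.15 (corn oil) and 19.19 (AAI) in females and 19.04 and 19.12 in males. Serpina1b gave 18.92 and 19.07 in females and 18.84 and 18.92 in males. For Serpina1d both female arrays and the corn oil-treated male array gave 18.77, and the AAI-treated male array gave 18.52. The equal values arise because the probe had rank 18 on each of those arrays, and quantile normalization gives equal ranks the same value. Its processed signals were 443000 and 422558 in females and 490897 and 370000 in males, corn oil first. The Serpina1c probe gave 19.04 and 18.92 in females and 19.01 and 19.07 in males, and the brighter Serpina1e probe 18.87, 18.90, 18.94 and 18.90. Over the 5 genes the log2 ratios ran from -0.12 to 0.15 in females and from -0.25 to 0.08 in males, and 5 of 5 in females and 4 of 5 in males were within the SD between probes. The exception was Serpina1d in males, at -0.25. A normalized value depends on the rank alone, so at these top ranks the small ratios were set in part by the normalization. Without normalization between arrays all 7 probes had negative ratios in males, from -0.41 to -0.12, beside a median of -0.11 over all genes. The second Serpina1a probe gave ratios of 0.04 in females and -0.18 in males, and the second Serpina1e probe 0.04 and -0.03. No direction is given for a single Serpina1 gene, because most of these ratios changed sign between settings of the processing. Of the 621 genes with a mean log2 signal of 16 or more, 4.19% differed at least 2-fold in females and 2.58% in males. That set begins below the signals of the Serpina1 probes, so it does not show what ratios were possible at theirs.

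**Figure D3:**
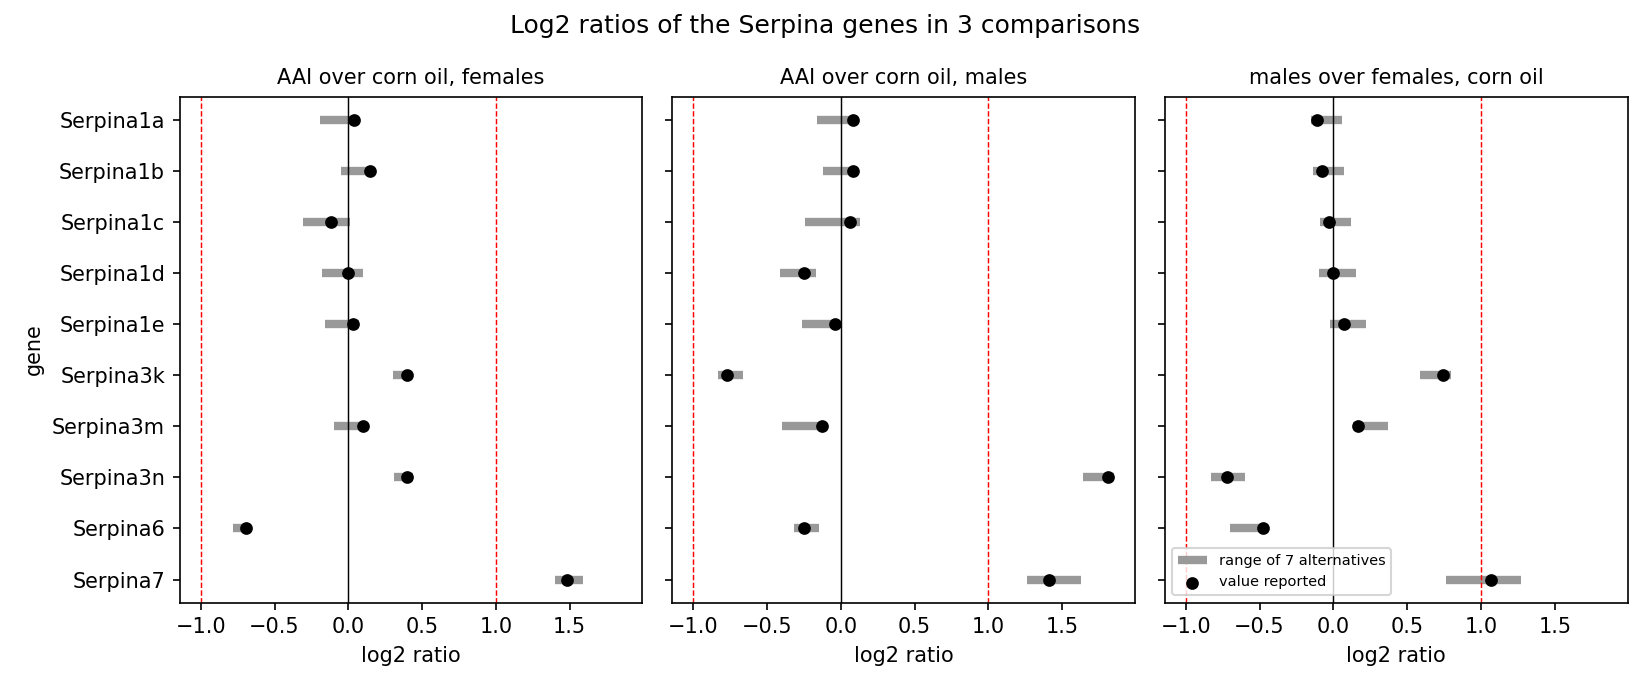
Log2 ratio (x axis) of each of the 10 Serpina genes (y axis) for AAI over corn oil in females and in males and for corn oil-treated males over females. Black points are the values reported, grey bars the range over 7 other settings of the processing (not an error between animals), and dashed lines mark 2-fold. The bars of Serpina7 and Serpina3n lie beyond 2-fold with AAI in males, and the bar of Serpina7 crosses 2-fold in the comparison of the sexes.

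Between the sexes, corn oil-treated males and females differed at least 2-fold in 1 of the 10 genes, Serpina7, beside 5.65% of 30846 genes (3.81% higher in males, 1.84% lower). Its log2 ratio of males over females was 1.07 (2.10-fold), and 0.76 to 1.27 under the other settings, below 2-fold with another background correction and without the trend correction of the scanner software. On the AAI arrays the gap was 1.01. Serpina3k was higher in males (0.74), and Serpina3n (-0.72) and Serpina6 (-0.48) were lower. These gaps had the same sign under all 7 settings. On the AAI arrays the Serpina3k gap was -0.44, the Serpina3n gap 0.70 and the Serpina6 gap -0.04. The 5 Serpina1 genes had ratios of -0.11 to 0.07. These comparisons share the corn oil-treated arrays with those of AAI, so a high or low value on 1 array enters both.

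The other clade A serpins included genes with a wider range between groups. Of 17 such genes on the array, 16 were tested in each comparison. By its brightest probe no gene differed at least 2-fold with AAI in females (median log2 ratio 0.20), although the second Serpina3f probe gave -1.16. In males 3 were lower, beside 4.55% of all genes tested, and none higher. Under the other settings 2 to 4 were lower and 0 or 1 higher. The median in males was -0.32, or -0.15 without 2 genes that have only a bound. Serpina4-ps1, named as a pseudogene, had a signal of 6.77 with corn oil and 6.95 with AAI in females, and of 9.87 and 6.74 in males. The corn oil-treated male array alone was high, and the log2 ratio with AAI in males was -3.13 (8.77-fold lower). Serpina9, known from germinal center B cells, had the same shape, with 6.24, 6.67, 8.54 and 6.67 and a ratio of -1.87 in males, and its other probe gave -1.18. Serpina3j, a neighbor of Serpina3k by name, had 15.03, 15.56, 16.05 and 14.95, a ratio of -1.11 in males and 0.53 in females. Its ratio in males was -1.16 to -0.82 under other settings, so it did not always reach 2-fold. The Alas2 signal, an erythroid marker, was also highest in corn oil-treated males (13.14, against 9.90 with AAI), and its part in the ratios of Serpina4-ps1 and Serpina9 was not tested. Serpina3i was higher with AAI in males by just less than 2-fold (0.99), and just past it with 75th percentile scaling or the normalized intensity of the authors, and Serpina3g was lower in females (-0.91). Between the corn oil arrays, beside 3.81% of all genes tested, 4 of 16 genes were at least 2-fold higher in males and none lower. These were Serpina4-ps1 (3.10), Serpina9 (2.30), Serpina3j (1.02) and Serpina3h (1.03), the last of them named after its values were seen. Serpina3h had signals of 12.21, 12.44, 13.24 and 12.35 in the same order of groups, and a ratio of -0.90 in males.

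**Figure D4:**
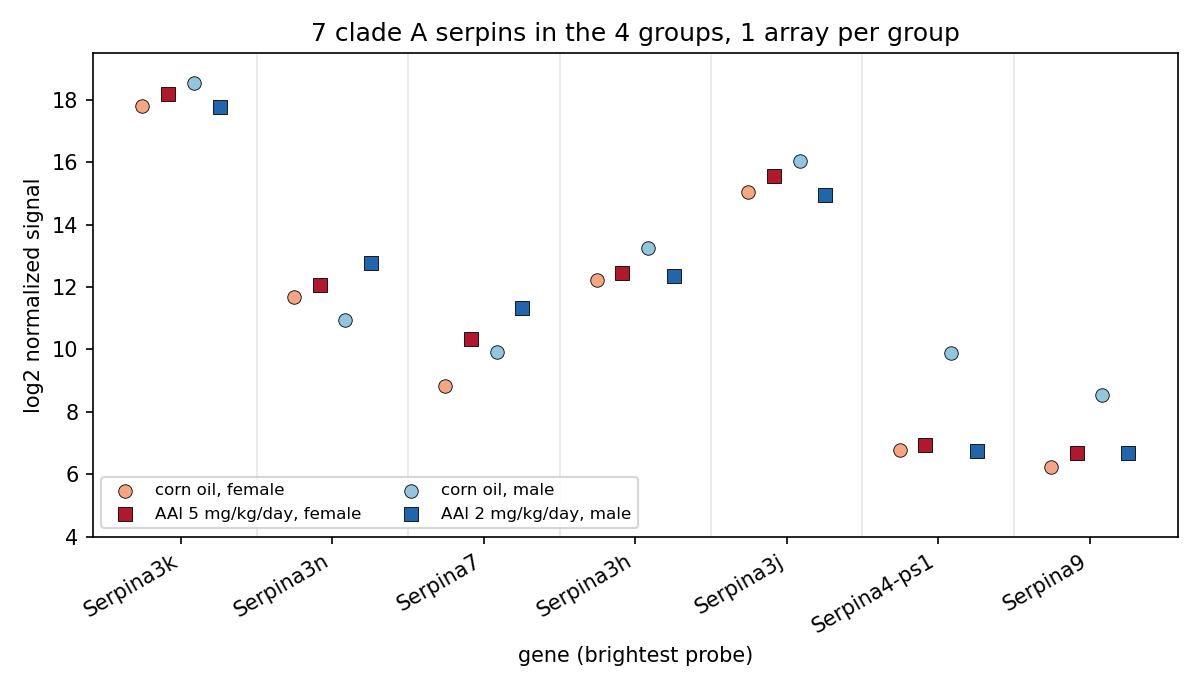
Log2 normalized signal (y axis) of 7 clade A serpins (x axis) in the 4 groups, 1 point per array and no error bars because each group has 1 array. For Serpina3k, Serpina3h, Serpina3j, Serpina4-ps1 and Serpina9 the corn oil-treated male point is the highest of the 4, and for Serpina7 and Serpina3n the AAI-treated male point is. The 7 genes were chosen after their values were seen.

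Serpins of other clades, which include antithrombin, did not reach 2-fold with AAI by the brightest probe of each gene. None of 14 genes did so in females or males, with medians of 0.02 and -0.12. Among those with the larger ratios were Serpini1 (0.96 in males), Serpinb8 (-0.85 in females), Serpinh1 (-0.76 in females) and Serpinb1a (-0.69 in females). Other probes did not always give the same value, with -0.47 in males for a Serpini1 probe and -0.29 in females for the second Serpinb8 probe. The second Serpinh1 probe gave -0.80 in females and 1.33 in males. In males it was above background with AAI alone, and the 1.33 was not turned into a bound. Between the corn oil arrays Serpinb1a, an inhibitor of neutrophil proteases, was lower in males (-1.44).

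Among 17 serine proteases that serpins inhibit or are named with, none of 16 tested reached 2-fold by its brightest probe in females. In males 2 of 17 were higher, beside 3.47% of all genes tested. Past 2-fold by another probe was Hgf in females (-1.02, 1 of 4 probes). The brightest Plat probe was above background on the AAI-treated male array alone, and its ratio in males is a lower bound of 0.83. Prtn3, neutrophil proteinase 3, had signals of 6.83, 7.45, 7.16 and 8.77 and a log2 ratio of 1.61 in males. Cma1, a mast cell chymase, had 6.23, 5.96, 5.94 and 7.43 and a ratio of 1.49 in males, which was 0.82 to 1.62 under other settings. Ctsg, neutrophil cathepsin G, was at 0.39 in females and -0.53 in males. Elane, neutrophil elastase and the target of alpha-1 antitrypsin, did not differ by more than the SD between probes in males (0.06; 0.29 in females). Hgf, Plat, Ctsg and Elane were named after their values were seen, as were Serpina3f and Alas2. Klkb1, plasma kallikrein, was at 0.46 in females and -0.83 in males, and F11, coagulation factor XI, at 0.41 and -0.67. Plau, urokinase, was at 0.18 in females and 0.70 in males, the latter 0.20 to 0.78 under other settings. The other Plau probe gave 0.52 and -0.29, but was above background on the AAI-treated female array alone.

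Serpina6 and Serpina7 carry hormones whose target genes were also on the array. Of 16 glucocorticoid-responsive genes, 4 were at least 2-fold lower with AAI in females and none higher (median -0.54), beside 3.07% of all genes lower. In males 3 were higher and none lower (median 0.40), beside 3.47% of all genes higher. In females the count depends on the probes, as Mt2 alone was past 2-fold under all 7 other settings, and the median was -0.28 with the mean of the probes of a gene. The metallothioneins Mt1 and Mt2, which bind metals, took part in both, with log2 ratios of -1.62 and -2.55 in females and 2.04 and 3.17 in males. A second Mt1 probe gave 0.09 in females and 1.64 in males. The corn oil arrays already differed, as Mt2 was 17.91 in females and 14.53 in males, and the AAI arrays stood at 15.37 and 17.70. Lcn2, lipocalin 2, an acute phase gene, had a signal of 10.56 with corn oil and 14.61 with AAI in males (4.05) and stood at 13.01 and 13.17 in females. Tsc22d3, a glucocorticoid-induced leucine zipper gene, was at -1.55 in females and -0.96 in males, and another probe gave -1.23 and -0.45. The remaining Tsc22d3 probe gave 0.22 and 0.73, but was above background on no array. It still entered the mean of the probes of the gene. Cdkn1a, the cell cycle inhibitor p21, was at -1.08 in females, but its other probes gave 0.35 and 1.01, so its direction in females depends on the probe. Of 10 thyroid hormone-responsive genes, 1 was lower in females (median -0.19), and 1 was lower and 1 higher in males (median -0.01). Of all genes tested, 3.07% were lower in females, and 4.55% were lower and 3.47% higher in males. Dio1, a deiodinase that activates and clears thyroid hormone, was lower in both sexes, with signals of 11.16 and 8.87 in females and 11.50 and 10.03 in males. Its log2 ratios were -2.29 and -1.47, and its 3 probes ran from -2.49 to -1.81 in females and from -1.55 to -1.11 in males. Thrsp, a lipogenic protein, was higher in males (1.28), and Fasn, fatty acid synthase, was at 0.74 in males. Bcl3, a coregulator of NF-kappaB, was at -0.36 in females and Klf9, a transcription factor, at -0.27. Hormone levels were not among the data analysed here.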

How the data were processed

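Liver RNA pooled from 5 mice was measured on 1 Agilent SurePrint G3 array per group. The authors quantified the scans with Feature Extraction 10.5.1.1 and deposited linear fluorescence intensity values per spot, and a series table with their quantile-normalized intensity, which was used as an alternative. Control spots, outlier spots and spots whose processed intensity had been replaced by the background value (0 to 92 per array) were left out. The log2 processed intensity of 56393 probes was quantile normalized over the 4 arrays (Python 3.11.15, limma 3.58.1 for normexp). The brightest probe stood for a gene. A gene was tested when either array of a comparison was above background, and its ratio is a lower bound where only 1 array was. The number of arrays limits the precision. The scripts were tested on simulated data. The sum of a marker list was taken over linear values and given as log2. Members and lists were chosen with earlier results of these data known. Named genes are all members and the 5 genes of each list with the largest ratio in either sex, of which 1 is not reported here. Gene names and mm9 coordinates are those of the files.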

Additional observations from a re-analysis of the deposited data

Results flagged for a closer look

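The log2 ratio of AAI over corn oil had opposite signs in females and males for 4 of the 10 genes, beside 41.6% of the 28196 genes above background on all arrays. The difference between the sexes was not tested. For Serpina3k it was 0.40 in females and -0.77 in males, both larger than the SD between probes, with the same signs under the 7 other settings. The values were 0.10 and -0.13 for Serpina3m, -0.12 and 0.06 for Serpina1c and 0.03 and -0.04 for Serpina1e, all smaller than that SD. The sign in females changed between settings for each of these genes, and the sign in males for Serpina1c only. These genes therefore give no direction.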

How the results depend on the processing

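No paired analysis was possible because each group has 1 array and the labels number no replicates. Of the log2 ratios of the 10 genes, 206 of 210 differed from the reported value by less than the SD between probes under 7 alternatives, as did 69 of 70 list medians, and 43 of 51 counts stayed within 1.5 times. With a threshold of 3-fold, 0 of the 10 genes passed in females, 1 in males and 0 between the sexes. At 1.5-fold these counts were 2 in females and 3 between the sexes. With normexp background correction Serpina7 was 0.76 between the sexes and the count was 0, as it was without the trend correction of the scanner software. Without normalization between arrays, an alternative added after seeing the data, the median of all genes was 0.20 in females, -0.11 in males and 0.11 between the sexes, and the ratios in males were -0.16 for Serpina1a, -0.24 for Serpina1c and -0.40 for Serpina3m. The median of the glucocorticoid-responsive genes in females was -0.28 with the mean of the probes of a gene. Scaled to the 75th percentile, 2 other clade A serpins in place of 4 were at least 2-fold higher in corn oil-treated males. These alternatives vary the processing only, and none measures the spread between mice. Weak signals lie close to background, and the near-identical Serpina1 probes cannot be read as separate genes.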
